A study of Mus musculus with 24 samples.

Results

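The 10 α- and β-tubulin genes Tuba1a, Tuba1b, Tuba1c, Tubb2a, Tubb2b, Tubb3, Tubb4a, Tubb4b, Tubb5 and Tubb6 were followed through RNA sequencing of mouse aorta. They were picked by gene symbol from the 41128 genes of the count table, and the family was taken up because Tubb4a was among the genes called for angiotensin II (AngII) in wildtype mice, so that response is described here without a test. The study asked how the β catalytic subunit of calcineurin, Ppp3cb, bears on the vascular changes caused by AngII, a hormone that raises blood pressure. It sequenced total RNA, with ribosomal RNA depleted, from 24 aortas in 8 groups of 3, each labelled as a separate replicate: Ppp3cb knockout (KO) mice given AngII, KO control mice, wildtype (WT) mice given AngII and WT control mice, each as males and as females. All mice were 5 months old and came from the B6,129S6-Ppp3cbtm1Jmk/J line, whose targeted allele is a germline one and not limited to 1 cell type. Treated mice had osmotic minipumps that released AngII at 500 ng per kg body weight per min for 4 weeks; whether control mice carried a pump is not stated in the labels.

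Microtubules are hollow polymers of tubulin dimers, each made of 1 α and 1 β chain, and they carry cargo, shape the cell and build the mitotic spindle. Mammals make several α and β chains, called isotypes, from separate genes. The isotypes differ mainly in a short acidic tail at the end of the protein, where enzymes modify it and motor and other microtubule-binding proteins touch it. In mammals Tubb4a and Tubb3 are best known from the nervous system (Tubb4a also from myelinating oligodendrocytes), Tubb2a and Tubb2b from neurons, Tuba1a from the developing brain, and Tuba1b, Tuba1c, Tubb4b and Tubb5 from most tissues. Tubb6 is a divergent β isotype found in many tissues.

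The stretch of coding sequence that encodes the tail is shown for 2 pairs of β genes, because the likeness between isotypes sets which of these genes can be told apart by their reads. Each line is the last 60 coding bases, stop codon included, 5′ to 3′ on the coding strand (mm10, GENCODE M21), and capitals mark bases that differ from the partner at the same distance from the stop.
Tubb2a: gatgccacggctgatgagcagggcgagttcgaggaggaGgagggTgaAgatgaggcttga
Tubb2b: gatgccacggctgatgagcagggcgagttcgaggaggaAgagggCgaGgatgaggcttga
Tubb4a: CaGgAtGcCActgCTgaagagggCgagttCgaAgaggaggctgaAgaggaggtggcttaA
Tubb4b: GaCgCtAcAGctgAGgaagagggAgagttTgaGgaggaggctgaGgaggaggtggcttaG
Tubb2a and Tubb2b differ at 3 of these 60 bases, and Tubb4a and Tubb4b at 13. Over the whole coding sequence Tuba1a and Tuba1b were 98.3% identical and Tubb2a and Tubb2b 96.5%, whereas Tubb4a was 82.3% to 84.5% identical to the other β genes.

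This decides how far a count belongs to its gene. Of all 50-base windows of the transcripts of Tuba1b, 83.1% also occurred in another annotated gene, against 75.5% for Tuba1a, 61.0% for Tuba1c, 55.5% for Tubb4b, 49.6% for Tubb2a and 39.3% for Tubb2b. For Tubb4a the share was 0.184%, for Tubb5 0.115% and for Tubb6 0%, so these 3 members could be counted almost wholly on sequence of their own. Gm17383, a processed pseudogene that shares such windows with Tuba1a, was listed with 16382 counts over the 24 libraries, and Tuba1a itself with 16953. Gm14150, another such pseudogene, held 4193 counts beside the 20256 of Tuba1b, and Tubb4b-ps1 held 479 beside the 3793 of Tubb4b. The 3 Tuba1 genes and the Tubb2a and Tubb2b pair are therefore reported as uncertain between their copies, and Tubb4b as uncertain between itself and its pseudogenes. Tuba1a and Tuba1b also overlap Gm49450 on the same strand, Tuba1b overlaps the antisense gene Gm41396 and Tubb4b overlaps Fam166a on the opposite strand; the strand setting of the counting is not given in the sources used here. Tubb4a itself (ENSMUSG00000062591) lies on the minus strand of chromosome 17, 57080066 to 57087782 (mm10), and overlaps no other annotated gene.

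The libraries held 1523328 to 6352365 counts (median 3835993), of which 2.51% to 40.3% lay on rRNA, snRNA and misc_RNA genes. Ppp3cb was at 21.3 ± 6.11 CPM (counts scaled to a common library size) in KO and 41.9 ± 10.8 CPM in WT aortas (SD, n = 12 each), a difference of -1.01 ± 0.16 log2 (SE; edgeR, adjusted p = 0.000177). The ranges, 11.2 to 30.3 CPM in KO and 28.1 to 69.4 CPM in WT, overlapped, so Ppp3cb does not separate the genotypes library by library. The 3 KO control female libraries were the shallowest, with 1523328, 2401264 and 1699541 counts against 2510551 or more in the others. Replicate 2 lay close to the next library, so only replicates 1 and 3 stood apart in depth. Their olfactory and vomeronasal receptor genes had summed levels of 1002 to 1992 CPM within protein-coding counts. The other libraries had 111 to 1073 CPM, so these ranges overlapped. The sex comparison is also given without the KO control females. AngII in KO and KO against WT are given in males alone, which leaves them out, and the AngII response by sex includes them. Other libraries differed from their replicates too. Chi-square per degree of freedom between 2 replicates ran from 6.66 to 97.3. The highest values were those of WT control male replicate 1 (97.3 and 78.7) and of KO AngII female replicates 1 and 3 (85.7). Tubb3, the neuronal β isotype (chromosome 8, 123411424 to 123422015, mm10), falls among the 531 genes at the end of chromosome 8 that have 0 counts in all 24 libraries; chromosomes 9, X, Y and the mitochondrial one are at 0 throughout. Tubb3 is treated as not measured; the other 9 members passed the filter on low counts.

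Levels were compared between genes per kb of exon. Over all 24 libraries the α genes were the highest, with Tuba1b at 120 ± 34.4 CPM per kb, Tuba1a at 103 ± 38.2 and Tuba1c at 78.7 ± 26.5 (SD, n = 24). Among the β genes Tubb5, the isotype common to most dividing and resting cells, was highest at 52.0 ± 6.37 CPM per kb. Tubb4b followed at 20.7 ± 5.76, Tubb2a at 18.2 ± 7.05, Tubb4a at 9.79 ± 5.45, Tubb6 at 8.20 ± 3.64 and Tubb2b at 5.78 ± 2.42 CPM per kb. Tubb4a thus made up 8.24 ± 3.96% of the length-scaled β-tubulin level of a library and Tubb5 46.1 ± 7.49% (SD, n = 24). How reads shared between copies were counted is not given. The ranks of the Tuba1 genes, Tubb2a, Tubb2b and Tubb4b, and the shares of the β-tubulin level, are therefore uncertain. Tubb5 was also the steadiest member, with 124 to 211 CPM across all libraries, whereas Tubb4a ranged over 2.74 to 49.6 CPM, Tubb2b over 3.14 to 26.9 CPM, Tubb4b over 21.02 to 63.3 CPM, Tuba1b over 59.2 to 311 CPM and Tuba1c over 39.5 to 269 CPM.

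The members called in a tested comparison were called between the sexes, over 12 males and 12 females of both genotypes and treatments. Its weights are orthogonal to those of the WT AngII response, but 12 of its libraries are the WT ones, and the low WT control females enter both. Tubb4a and the 3 Tuba1 genes were higher in males, 4 of the 9 members tested; over all 16316 genes 5.27% were called and 3.44% were called higher in males (edgeR's quasi-likelihood test, adjusted p under 0.05). Tubb4a stood at 28.2 ± 10.4 CPM in males and 15.4 ± 10.4 CPM in females (SD, n = 12 each), a difference of 1.08 ± 0.23 log2 (95% interval 0.61 to 1.55; edgeR, adjusted p = 0.00441). The lowest, median and highest values were 11.5, 25.5 and 49.6 CPM in males and 2.74, 14.4 and 34.2 CPM in females. Of the 12 males 11 lay above the female median, yet only 3 lay above every female, so the sexes overlapped. In the length-scaled β-tubulin pool the Tubb4a share was 10.5 ± 3.03% in males and 5.95 ± 3.49% in females.

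By condition, Tubb4a in KO mice given AngII was at 23.5, 24.3 and 29.9 CPM in males and 12.4, 21.4 and 16.3 CPM in females. KO controls had 49.6, 37.6 and 28.4 CPM in males and 26.1, 5.76 and 6.65 CPM in females. In these conditions every male lay above every female, which 6.55% of all genes did among KO AngII mice and 13.5% among KO controls. WT mice given AngII had 20.3, 23.6 and 42.3 CPM in males and 18.01, 28.7 and 34.2 CPM in females. WT controls had 11.5, 26.6 and 21.2 CPM in males and 6.23, 6.09 and 2.74 CPM in females. The sexes overlapped in WT mice given AngII but not in WT controls, where 4.19% of all genes lay wholly higher in males. The male minus female difference was 0.64 ± 0.45 log2 in KO AngII, 1.63 ± 0.47 in KO control, 0.089 ± 0.44 in WT AngII and 1.97 ± 0.48 in WT control mice.

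**Figure D1:**
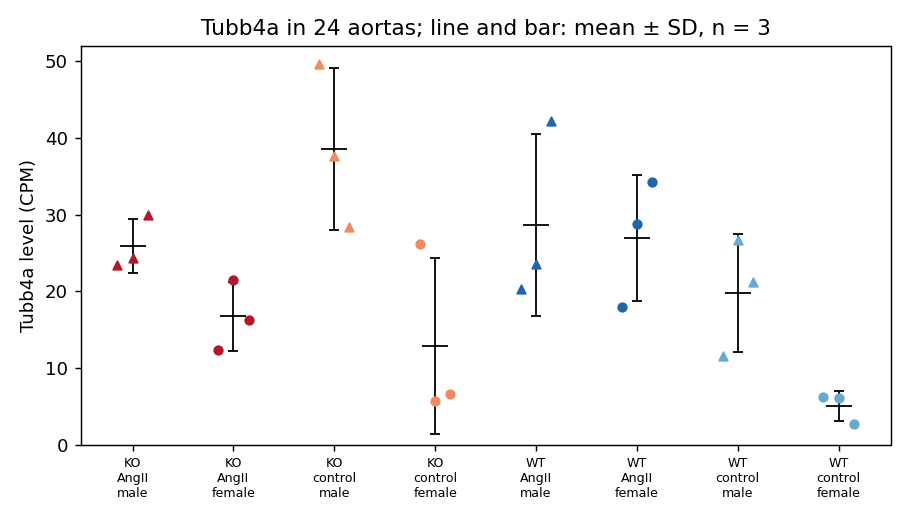
Tubb4a level in CPM (vertical axis, from 0) in each of the 24 aortas by group, with triangles for males and circles for females; the horizontal line is the group mean and the bar ± SD (n = 3). The 3 WT control females lie between 2.74 and 6.23 CPM, below every male, and the 3 KO control males between 28.4 and 49.6 CPM.

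This sex difference in Tubb4a was called in all fits that left out a single library, with an adjusted p of 0.000147 to 0.0113. It was also called over WT control, WT AngII and KO AngII mice alone, in a fit without the 3 KO control females, at 0.91 log2 (edgeR, adjusted p = 0.0336). In that fit, chosen after seeing the data, 166 genes were called in place of 860. The fit of all 24 libraries put the difference at 1.97 log2 in WT control, 0.64 in KO AngII and 0.089 in WT AngII mice. The value without the KO control females leans on WT controls, whose low females also enter the WT AngII response that brought Tubb4a into view. This call is therefore not free of that choice. Over KO mice alone, also chosen after seeing the data, which share no library with the WT response but include the KO control females, the difference was 1.13 ± 0.32 log2 (95% interval 0.47 to 1.795; edgeR, adjusted p = 0.0346), and 5.75% of all genes were called. The labels number all female libraries 1 to 12 and all male libraries 13 to 24, so the order of the libraries and sex cannot be told apart; the labels name no batch. Depth and RNA makeup ran with sex: males had 3271095 to 6352365 counts (median 4262119) and females 1523328 to 4888759 (median 2879282). The share on rRNA, snRNA and misc_RNA genes was 32.5% to 39.3% in males and 15.4% to 23.6% in females with WT AngII, and 30.8% to 40.1% in males and 2.51% to 13.3% in females among KO controls. It overlapped between the sexes in KO AngII and WT control mice. Their part in the sex difference was not tested.

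The α-tubulin genes behaved as a block. Tuba1a averaged 232 ± 49.5 CPM in males and 140 ± 53.7 CPM in females, a difference of 0.79 ± 0.12 log2 (edgeR, adjusted p = 0.000273). Tuba1b averaged 270 ± 34.7 CPM in males and 180 ± 54.6 CPM in females (0.63 ± 0.14 log2, adjusted p = 0.00577), and Tuba1c 220 ± 42.9 CPM in males and 140 ± 48.0 CPM in females (0.68 ± 0.15 log2, adjusted p = 0.00768; edgeR, SD over n = 12 each). Their levels moved together over the 24 libraries, with Pearson r of 0.94 for Tuba1a with Tuba1b, 0.92 for Tuba1a with Tuba1c and 0.97 for Tuba1b with Tuba1c. Without the KO control females r was 0.88, 0.84 and 0.93. These genes share much of their sequence, and a value for 1 of them is not independent of the others.

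Much of this α-tubulin difference came with the KO control mice. Tuba1a was at 276, 298 and 273 CPM in KO control males and at 45.2, 70.2 and 92.6 CPM in KO control females, a difference of 2.02 ± 0.26 log2. It was 0.46 ± 0.25 in KO AngII, 0.50 ± 0.25 in WT AngII and 0.18 ± 0.25 in WT control mice. In WT mice given AngII Tuba1a was at 281, 270 and 261 CPM in males and 148, 222 and 207 CPM in females; all 3 Tuba1 genes lay wholly higher in males there, as 7.75% of all genes did. Among the 9 members, 7 lay wholly higher in males in KO controls, where 13.5% of all genes did so; Tubb5 and Tubb6 did not. Fitted over the other 3 conditions without the KO control females, the differences were 0.38 log2 for Tuba1a, 0.38 for Tuba1b and 0.43 for Tuba1c, and none was called (edgeR, adjusted p = 0.118, 0.108 and 0.116). Tubb4a was the 1 member called in that fit, where its largest difference was in WT controls.

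The other 5 members were not called between the sexes. Tubb6 differed by 0.52 ± 0.28 log2 (edgeR, adjusted p = 0.305), and without KO control female replicate 3 by 0.88 (adjusted p = 0.0413). Tubb2b differed by 0.37 ± 0.25 log2 with a 95% interval of -0.14 to 0.88. The intervals were narrower for Tubb4b (-0.24 to 0.40), Tubb2a (-0.40 to 0.32) and Tubb5 (-0.28 to 0.18). Tubb5 differed between males and females by -0.11 log2 in WT control mice and by less in the other 3 conditions.

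**Figure D2:**
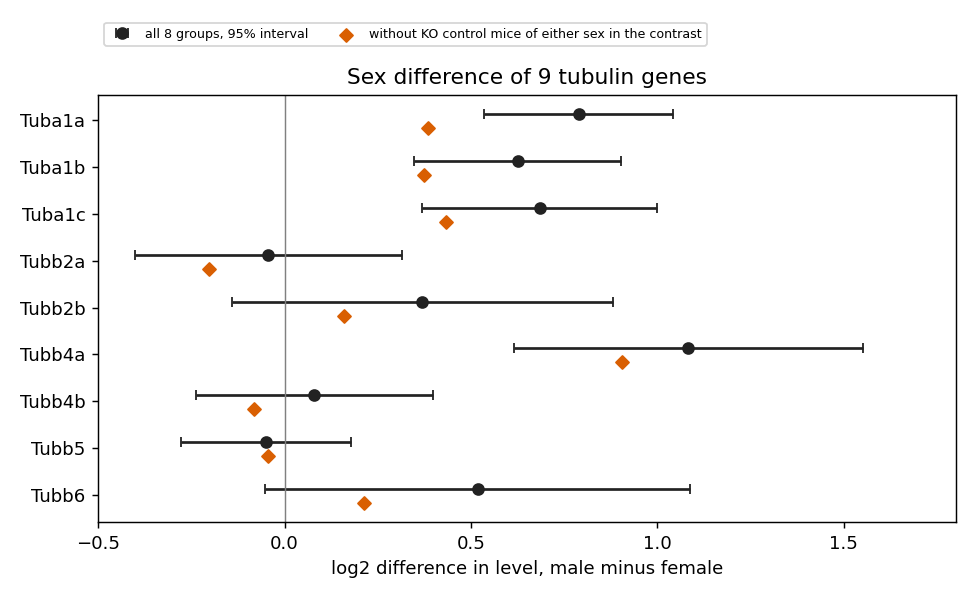
Log2 difference in level, male minus female, for the 9 tubulin genes measured. Black points and bars are the estimate and 95% interval over all 8 groups, and orange diamonds the estimate over WT control, WT AngII and KO AngII mice in a fit without the KO control females; Tubb4a stays at 0.91 and Tuba1a moves to 0.38.

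Marker genes of smooth muscle, the main cell type of the aortic wall, and of other cell types were read beside this difference. All 6 smooth muscle markers tested were higher in males, 3 of them called: Des at 1.16, Acta2 at 0.79 and Smtn at 0.48 log2 (edgeR, adjusted p = 0.00158, 0.00307 and 0.0419). Their summed level was 12159 to 19621 CPM in males and 6301 to 17081 CPM in females, and 6301 to 10329 CPM in the KO control females; Tagln and Cnn1, on chromosome 9, are at 0. Of 12 neuron and Schwann cell markers tested 6 were higher and 6 lower in males, and Sox10 and Prph were called higher (1.83 and 3.26 log2; edgeR, adjusted p = 0.0389 and 0.0419), with a summed level of 30.8 to 351 CPM in males and 22.7 to 97.4 CPM in females. All 5 dividing-cell markers tested were lower in males (median -0.85 log2), with sums of 1.77 to 41.1 CPM in males and 10.6 to 82.9 CPM in females. Birc5 was called among them (-3.33 log2, edgeR, adjusted p = 0.0312). Of 6 fibroblast markers 4 were higher and 2 lower in males, with Pi16 called (0.57 log2, edgeR, adjusted p = 0.00986). Of 7 endothelial markers 1 was higher and 6 lower (median -0.24 log2), with none called. In the fit without the KO control females all 6 smooth muscle markers were still higher in males, Des was called (1.08 log2; edgeR, adjusted p = 0.0336), and no other marker was; there 5 of 11 neuron and Schwann cell markers tested and 3 of 6 fibroblast markers were higher. The part of these cell types in the tubulin difference was not tested, and in whole aorta more cells of a type and more RNA per cell cannot be told apart.

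AngII in WT mice is the response for which Tubb4a was noticed, and 0.208% of all genes were called in it. Tubb4a, the 1 member called, averaged 27.8 ± 9.18 CPM in WT AngII mice and 12.4 ± 9.51 CPM in WT controls (SD, n = 6 each), a difference of 1.47 ± 0.33 log2. The difference was 2.42 ± 0.49 log2 in females and 0.53 ± 0.44 in males. All 3 WT AngII females lay above all 3 WT control females, while the males of both treatments overlapped. Tubb4a was called again in 13 of the 24 fits that left out a single library. These fits reuse the libraries that brought it into view, so their calls give no support beyond that choice.

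Tubb2a, a β isotype of neurons and other cells, stood next to it at 0.71 ± 0.25 log2, with 24.8, 46.7 and 62.3 CPM in WT AngII females and 21.98, 19.3 and 22.5 CPM in WT control females. Tubb6 differed by 0.56 ± 0.39 log2 and Tuba1a by 0.49 ± 0.17. Tubb4b, Tuba1c, Tubb2b, Tuba1b and Tubb5 differed by 0.14 to 0.35 log2. Tubb4a, whose response in WT mice brought the family into view, lay wholly higher after AngII in females. Of the other members Tubb2a and Tubb6 did so in females, against 5.81% of all genes, and Tuba1a alone in males, against 8.1%. Marker lists are given beside these values. Of 5 dividing-cell markers tested 3 were higher and 2 lower with AngII, with Mki67 called at 2.36 log2 and a summed level of 10.1 to 74.8 CPM in WT AngII mice and 1.77 to 22.2 CPM in WT controls. Of 6 fibroblast markers 5 were higher (median 0.44 log2), with Col1a1 called at 1.46 and sums of 1888 to 4259 CPM in WT AngII mice and 1214 to 2038 CPM in WT controls. All 7 endothelial markers were lower (median -0.71 log2) and 5 of 6 macrophage markers higher (median 0.69), with none called. Of 12 neuron and Schwann cell markers 11 were lower, none called, with a median of -1.70 log2 and sums of 45.8 to 71.0 CPM in WT AngII mice and 27.1 to 219 CPM in WT controls. The part of these cells in the tubulin values was not tested.

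AngII in KO mice was tested, since its contrast uses none of the WT libraries. The KO libraries do enter the estimate of spread shared by all groups. Without KO AngII male replicate 2 no member was called for AngII in WT. No member was called, and neither was any of the 16316 genes (0%) by edgeR; before adjustment 1258 genes had p under 0.05, and the count was 17 by DESeq2 and 0 by limma-voom. Tubb4a averaged 21.3 ± 6.20 CPM in KO AngII mice and 25.7 ± 17.2 CPM in KO controls (SD, n = 6 each), a difference of -0.076 ± 0.32 log2 (95% interval -0.74 to 0.58; edgeR, adjusted p = 0.987). Its sign rested on single libraries: without KO control female replicate 1, which had 26.1 CPM, the difference was 0.43. The other members ran between -0.45 ± 0.36 log2 for Tubb2b and 0.30 ± 0.18 for Tuba1a.

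Within KO mice the sexes are given apart, with no test. In KO males all 9 differences from controls were below 0, as were 8513 of 16316 genes, with Tubb4b at -0.015 and Tubb5 at -0.024 log2. Of the members 6 (the 3 Tuba1 genes, Tubb2a, Tubb2b and Tubb6) lay wholly lower than in control males, and 5.3% of all genes did so. The Tuba1 genes share sequence, as do Tubb2a and Tubb2b, so these are not 6 independent values. Tuba1a was at 211, 192 and 203 CPM in KO AngII males and at 276, 298 and 273 CPM in KO control males, a difference of -0.48 ± 0.25 log2. Tubb2a was at 22.004, 13.4 and 16.8 CPM in KO AngII males and at 32.5, 31.0 and 33.3 CPM in KO control males, a difference of -0.90 ± 0.35. Neither gene overlapped between these groups. Neuron and Schwann cell markers were lower with it: their sum was 33.2 to 41.7 CPM in KO AngII males and 116 to 351 CPM in KO control males, and all 11 tested in males alone were lower (median -3.11 log2), none called. Their part in the tubulin values was not tested. In KO females Tuba1a was at 150, 151 and 139 CPM with AngII and at 45.2, 70.2 and 92.6 CPM in controls, a difference of 1.08 ± 0.25 log2. Tubb4b was the other member wholly higher with AngII in KO females. It was at 35.4, 51.7 and 37.3 CPM against 21.02, 33.5 and 27.7 CPM in KO control females. Among all genes 6.85% did so, and the KO control females were the shallowest libraries.

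**Figure D3:**
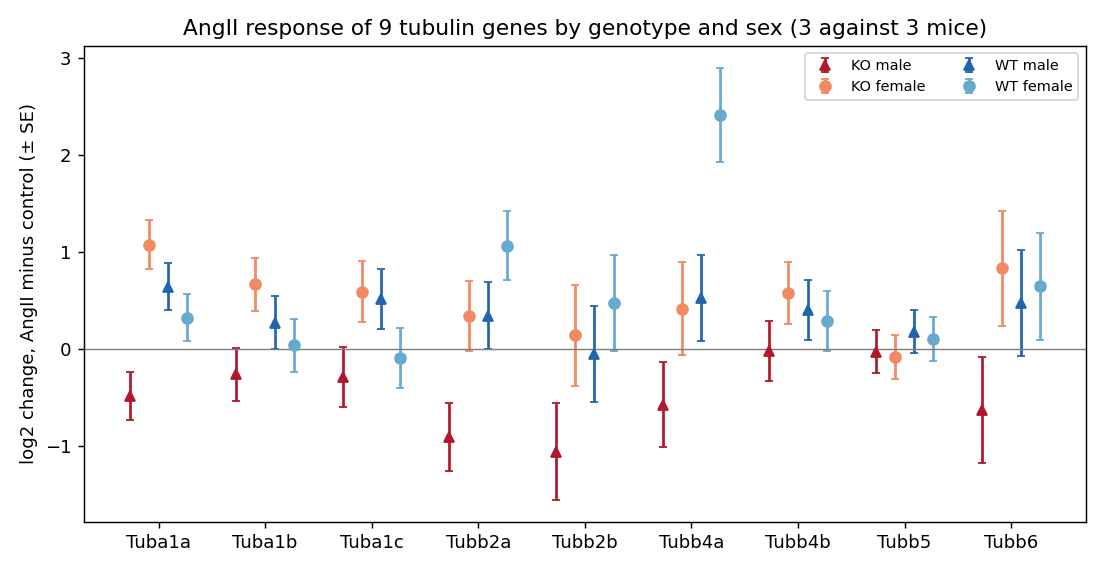
Log2 change with AngII (AngII minus control) of the 9 tubulin genes in KO males, KO females, WT males and WT females, 3 against 3 mice each, with bars of ± SE. The highest point is Tubb4a in WT females at 2.42, and all 9 points of the KO males lie below 0, with Tubb4b at -0.015 and Tubb5 at -0.024.

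Whether the AngII response differed between the sexes was tested over both genotypes. The male minus female difference in response was -1.44 ± 0.46 log2 for Tubb4a (unadjusted p = 0.00366), -0.98 ± 0.35 for Tubb2a (0.00894) and -0.62 ± 0.25 for Tuba1a (0.0172). None was called (edgeR, adjusted p = 1.00 for each), nor was any gene (0%); before adjustment 739 genes had p under 0.05, and the count was 5 by DESeq2 and 0 by limma-voom. Of the 9 members 8 had a negative difference, with Tubb5 at 0.063 ± 0.22. Of all 16316 genes 9294 were negative too, with a median of -0.098 log2, and this comparison includes the KO control females. It also uses the WT libraries that brought Tubb4a into view. Tubb4a changed with AngII by 0.53 log2 in WT males, 2.42 in WT females, -0.57 in KO males and 0.42 in KO females. The unadjusted p of Tubb4a is therefore not free of that choice.

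KO and WT mice were compared over both treatments. No member was called, against 1.34% of all genes. Tubb6 averaged 16.2 ± 7.60 CPM in KO and 23.8 ± 8.69 CPM in WT mice (SD, n = 12 each), a difference of -0.60 ± 0.28 log2 (95% interval -1.17 to -0.03; edgeR, unadjusted p = 0.0388, adjusted p = 0.35). Tubb4b differed by -0.38 ± 0.16 log2 (adjusted p = 0.277) and Tuba1a by -0.31 ± 0.12 (adjusted p = 0.249). Tubb4a differed by 0.35 ± 0.23 log2 (95% interval -0.11 to 0.82; adjusted p = 0.558) and Tubb5 by 0.090 ± 0.11. In males alone the 3 Tuba1 genes had the other sign, at 0.0455 to 0.14 log2. Of the marker lists, all 6 smooth muscle and all 6 adipocyte markers tested were lower in KO mice (medians -0.22 and -0.45 log2), and all 6 macrophage and all 5 dividing-cell markers higher (0.66 and 0.72), with none called. In males alone 2 of 6 smooth muscle and 5 of 6 adipocyte markers were lower, and 6 of 6 macrophage and 2 of 3 dividing-cell markers higher. Their part in the tubulin values was not tested.

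The treatments are given side by side, without a test, because they share the WT libraries that brought Tubb4a into view. Tubb4a differed between KO and WT mice by -0.42 ± 0.31 log2 under AngII and by 1.13 ± 0.34 in controls. The KO minus WT difference in AngII response was therefore -1.55 ± 0.46 for Tubb4a, and it was -0.99 ± 0.35 for Tubb2a; the other 7 members lay between -0.67 and 0.047. Under AngII, Tubb6 was at 18.7, 16.98 and 11.9 CPM in KO females and 15.8, 16.5 and 14.9 CPM in KO males, and at 19.8, 26.9 and 31.3 CPM in WT females and 31.9, 29.05 and 30.8 CPM in WT males. All 6 KO mice lay below all 6 WT mice, as did 0.276% of all genes. Tubb6 was the 1 member for which this held, with a difference of -0.83 ± 0.39 log2. In controls Tubb6 was at 0, 6.12 and 20.5 CPM in KO females and 27.6, 20.3 and 25.0 CPM in KO males, and at 15.8, 17.2 and 16.7 CPM in WT females and 33.1, 5.19 and 27.7 CPM in WT males, so those groups overlapped.

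**Figure D4:**
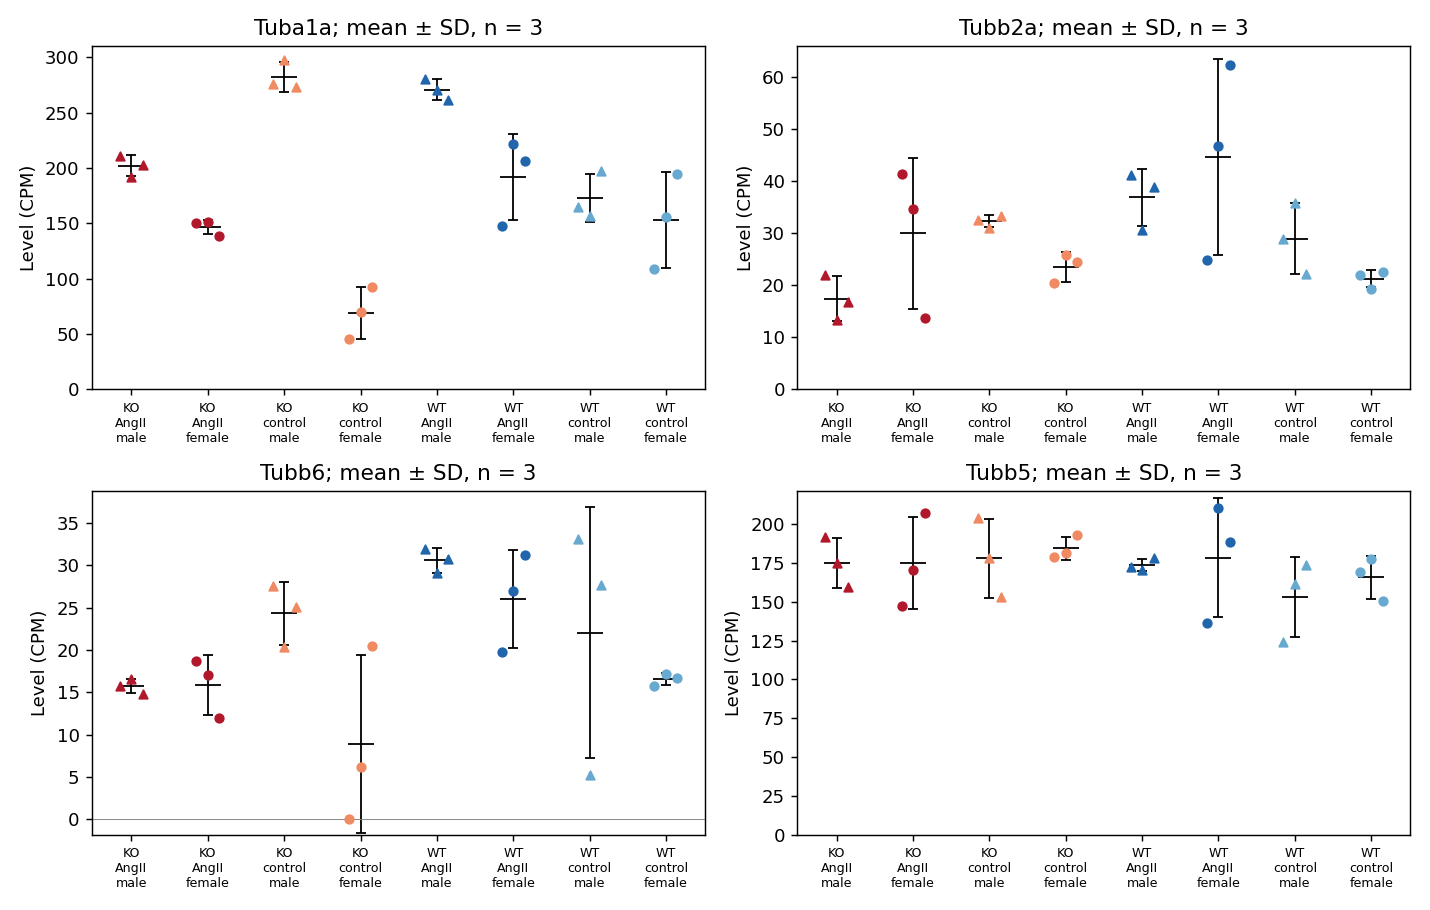
Levels in CPM (vertical axis, starting at or just below 0) of Tuba1a, Tubb2a, Tubb6 and Tubb5 in each of the 24 aortas by group, with triangles for males, circles for females, and the group mean ± SD (n = 3). Tuba1a reaches 298 CPM in KO control males and 45.2 CPM in KO control females, the 6 KO AngII mice lie below the 6 WT AngII mice for Tubb6, and Tubb5 stays between 124 and 211 CPM.

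Ordered by mean level over the 8 groups, Tubb4a was highest in KO control males (38.6 ± 10.6 CPM), followed by WT AngII males (28.7 ± 11.9), WT AngII females (27.0 ± 8.24), KO AngII males (25.9 ± 3.51), WT control males (19.8 ± 7.65), KO AngII females (16.7 ± 4.51), KO control females (12.8 ± 11.5) and WT control females (5.02 ± 1.98 CPM; SD, n = 3 each). Every group overlapped with its neighbours in this order. Of the other members, Tuba1a had the pattern most like it over the 24 libraries (Pearson r = 0.47), then Tubb2b (0.42), and Tubb6 the least (0.073). Without the KO control females the order changed: Tuba1a stood at 0.59, Tuba1b at 0.55, Tuba1c at 0.45, Tubb5 at 0.39, Tubb2a at 0.35, Tubb2b at 0.31, Tubb6 at 0.21 and Tubb4b at 0.066. Beyond the family, the 5 genes with the highest Pearson r to Tubb4a among 10775 candidates were Efhd2 (0.74), which encodes a calcium-binding actin-associated protein, Sepn1 (0.71), a selenoprotein of the endoplasmic reticulum, Adam9 (0.70), a membrane metalloprotease, Wasf2 (0.70), an activator of actin branching, and Mxra7 (0.70). Their mean levels were 39.9, 23.6, 78.5, 137 and 61.7 CPM. These libraries share sex, genotype and treatment, and the values describe likeness only; without the KO control females r was 0.72, 0.70, 0.73, 0.67 and 0.71, and the genes ranked 8, 14, 7, 26 and 12, so that none of them was among the first 5.

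The 7 lists of other microtubule genes were read in the same fits, and calls were found in the comparison of males with females alone. Of 18 microtubule motor genes tested, 14 were higher and 4 lower in males, with a median of 0.14 log2, and 3 were called higher: Kif1c, a kinesin, at 0.60 ± 0.13, Klc2, a kinesin light chain, at 0.81 ± 0.21, and Dctn1, the large dynactin subunit, at 0.55 ± 0.14 (edgeR, adjusted p = 0.00372, 0.0177 and 0.021). Of 12 microtubule-associated proteins 7 were higher and 5 lower, with a median of 0.10 log2, and Map7d1 (0.54 ± 0.15) and Map1a (0.44 ± 0.13), which bind along the microtubule wall, were called higher (adjusted p = 0.0248 and 0.0497). None of these 5 calls held in the fit without the KO control females, where Klc2 stood at 0.82 log2, Kif1c at 0.47, Dctn1 at 0.37, Map7d1 at 0.36 and Map1a at 0.15 (edgeR, adjusted p = 0.0764, 0.095, 0.148, 0.29 and 0.727). The median over all genes was -0.050 log2, and 3.44% were called higher. Of 19 tubulin-folding genes 13 were higher, of 14 tubulin-modifying enzymes 9, of 22 genes of microtubule ends and turnover 8, of 11 γ-tubulin ring complex genes 4 and of 6 other tubulins 4, with none called. Without the KO control females 6 of 19 folding genes were higher (median -0.055 log2), so that this list turned round, as were 7 of 14 modifying enzymes, 11 of 18 motors and 8 of 12 microtubule-associated proteins. The genes with the smallest p in the folding list were the chaperonin subunits Cct8 (-0.34 log2, adjusted p = 0.214) and Cct5 (0.30, adjusted p = 0.347). Among modifying enzymes they were the deacetylase Sirt2 (0.52, adjusted p = 0.0952) and Ttll1 (0.50, adjusted p = 0.298). At microtubule ends they were Kif2a, a depolymerizing kinesin (-0.54, adjusted p = 0.0626), and Mapre2, an end-binding protein (0.32, adjusted p = 0.266). In the ring complex they were Nedd1, which recruits it (-0.94, adjusted p = 0.0851), and Tubgcp3, one of its core subunits (-0.41, adjusted p = 0.0865), and among other tubulins Tuba4a (0.73, adjusted p = 0.2) and the γ-tubulin Tubg1 (0.55, adjusted p = 0.292).

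Between KO and WT mice none of these genes was called, against 1.34% of all genes. Of the 19 tubulin-folding genes 16 were lower in KO, with a median of -0.28 log2 beside -0.0073 over all genes. Cct5, a subunit of the chaperonin that folds tubulin and actin, had the smallest p at -0.61 ± 0.17 log2 (edgeR, adjusted p = 0.0672), followed by Cct2 at -0.41 ± 0.18 (adjusted p = 0.327). Of the 12 microtubule-associated proteins 11 were lower in KO, with a median of -0.25 log2 and Map6, which stabilizes microtubules, at -0.38 ± 0.14 (adjusted p = 0.225) and Mtus1 at -0.22 (adjusted p = 0.363). Motors were lower for 13 of 18 genes, with Kif5b, a conventional kinesin heavy chain, at -0.27 ± 0.12 (adjusted p = 0.305) and Dync1h1, the dynein heavy chain, at -0.21 (adjusted p = 0.428). The modifying enzymes were lower for 10 of 14 genes, with the α-tubulin acetyltransferase Atat1 at -0.47 (adjusted p = 0.371) and Ttll1 at -0.54 (adjusted p = 0.386). In males alone, which leaves out the KO control females, 13 of 19 folding genes (median -0.13 log2), 7 of 12 microtubule-associated proteins (median -0.13), 8 of 18 motors (median 0.0030) and 8 of 13 modifying enzymes were lower in KO, with none called. For the other 3 lists, over both sexes, 15 of 22 genes of microtubule ends, 6 of 11 ring complex genes and 4 of 6 other tubulins were lower; the smallest p there were those of Fign, a severing enzyme (0.39, adjusted p = 0.376), Mapre3 (-0.33, 0.526), Nedd1 (0.79, 0.276), Mzt2 (-0.52, 0.719), Tuba4a (-0.26, 0.821) and Tubg1 (-0.21, 0.841).

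For AngII no listed gene was called in KO or in WT mice. In KO mice Cct2 stood at 0.83 ± 0.26 log2, the polyglutamylase subunit gene Ttll1 at 1.24 ± 0.39, and Mapt, which encodes tau, at -1.30 ± 0.45 (edgeR, adjusted p = 0.388, 0.388 and 0.459). The next in those lists were Cct5 (0.38, 0.749), Sirt2 (0.50, 0.675) and Map7 (-1.05, 0.477), and the smallest p among motors were those of the neuronal kinesin Kif5a (-1.16, 0.645) and the dynactin subunit Dctn2 (0.60, 0.722). At microtubule ends they were the neuronal destabilizer Stmn2 (-0.88, 0.664) and Ckap5 (0.34, 0.687), in the ring complex Mzt2 (1.15, 0.733) and Akap9 (-0.19, 0.809), and among other tubulins Tuba8 (1.07, 0.778) and Tubd1 (-0.77, 0.801). In WT mice 15 of 18 motors and 7 of 12 microtubule-associated proteins were higher with AngII, with medians of 0.22 and 0.25 log2 beside -0.012 over all genes. In the male minus female difference of the AngII response, 17 of 18 motors and 17 of 19 folding genes were negative, with medians of -0.22 and -0.35 log2 beside -0.098 over all genes, and none was called; this comparison includes the KO control females. The smallest unadjusted p by edgeR were those of Agbl3, a deglutamylase (-1.97), Stmn2 (-1.59), the tubulin cofactor Tbcb (-1.05), Ckap5 (-0.60), Map1a (-0.56) and the prefoldin subunit Pfdn4 (-2.07); they ran between 0.0165 and 0.0421. They were followed in their lists by Kif3a (-0.54), Kif1a (-0.94), Nedd1 (1.11), Map1b (-0.40), Tubgcp5 (-0.73), Vash1 (1.23), Tuba8 (1.14) and Tubg2 (0.80), and the adjusted p by edgeR was 1.00 for each.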

How the data were processed

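Total RNA of 24 mouse aortas, depleted of ribosomal RNA per the labels' protocols, was measured as 1 library per labelled replicate; the labels do not name the animals, and p-values measure the spread between these samples. The authors deposited 1 table of whole-number counts per gene, not normalized. Per the submitters' processing notes, featureCounts 1.4.6, TopHat2 2.0.14, cutadapt 1.8.1, Bowtie2 2.2.5 and the build mm10 are named, with no roles; read length, strand and multiple-mapping settings are not given in the sources used here. GENCODE M21 matched 40254 of 41128 identifiers and all 10 members.

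The filter filterByExpr, set to a minimum count of 10 and a minimum total of 15, left 16316 genes. One edgeR 4.0.16 quasi-likelihood model (limma 3.58.1, R 4.3.3) with TMM factors and a coefficient per group was fitted to all 24 libraries, with two-sided tests adjusted by Benjamini and Hochberg over all genes kept; called means an adjusted p under 0.05. Contrasts average over the conditions named. CPM were taken on TMM-scaled library sizes, log2 CPM used a prior count of 2, and errors cover the spread between samples. DESeq2 1.42.0, limma-voom and other settings were alternatives, and the model was tested on simulated data.

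The members and the gene lists were chosen with earlier results of these data known. Tests were made on contrasts whose weights are orthogonal to the mean AngII response of WT mice, for which Tubb4a was noticed; all but AngII in KO still use the WT libraries. Named genes were all members; called genes of each list (up to 4), otherwise those with the smallest p; the 5 genes most like Tubb4a (tested genes whose mean reached 1 log2 CPM); and markers that moved with a result. Sequences came from the GENCODE M21 coding annotation of mm10; they are shown for 4 members.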

Additional observations from a re-analysis of the deposited data

Results flagged for a closer look

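Tubb2b in WT control male replicate 2 stood at 26.9 CPM, far from the other 5 WT control libraries. It was the 1 library found in 36 groups of 6 checked, and chance gives about 1 in 20 groups.

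Tuba1a changed with AngII by -0.48 log2 in KO males and by 1.08 in KO females, with every AngII male below every control male and every AngII female above every control female. In WT males the change was 0.65 log2, with every AngII male above every control male. These opposite directions between the sexes of KO mice and between the genotypes of males were not tested one by one. The KO control females had the fewest counts, and Tuba1a shares most of its sequence with other genes.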

How the results depend on the processing

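Over 12 other settings and 24 fits without a single library, 1439 of 1485 log2 changes of single members counted as kept. In the tested comparisons kept means the same direction and call, and 34 reversed, 3 were weaker and 1 was stronger. For AngII in WT it means within the SE of the main value, and 8 moved further. Neither sign nor call was scored there, and Tubb4a lost its call in several fits. In settings other than single libraries, values for Tuba1c and Tubb2b fell as low as -0.12 and -0.077. The number of members called stayed at 0 for AngII in KO, KO against WT and the AngII response by sex. For males against females it was 4 in all settings but 2: 1 over WT control, WT AngII and KO AngII without the KO control females, and up to 5 (range 4 to 5) without single libraries. Genes called for AngII in WT numbered 80 with DESeq2, 329 with limma-voom, 134 with no count filter, 5 in males, 0 in females, 68 without KO control female replicates 1 and 3, and 5 to 86 without single libraries; members called were 3 with limma-voom, 0 with RLE size factors, in males, in females or with the replicate block, and 0 to 1 without single libraries. For AngII in KO the counts were 17 with DESeq2, 85 with no filter, 1 with only the groups compared and 0 to 113 without single libraries, the highest without KO control female replicate 2. For KO against WT they were 486 (DESeq2), 373 (limma-voom), 559 (no filter), 5 (males), 131 (without KO control female replicates 1 and 3) and 171 to 624; for males against females 1458 (DESeq2), 166 (without the KO control females) and 605 to 1562 (the upper ends of both ranges without KO control female replicate 2); and for the AngII response by sex 5 (DESeq2), 7 (no filter) and 0 to 2. Signs reversed for AngII in KO in males (Tuba1a -0.46, Tuba1b -0.24, Tuba1c -0.26, Tubb6 -0.61) and in females (Tubb2a 0.32, Tubb2b 0.11, Tubb4a 0.37), and for Tubb4a with limma-voom (0.29) and without KO control female replicates 1 and 3 (0.49). They also reversed for KO against WT in males (Tuba1a 0.14, Tuba1b 0.0455, Tuba1c 0.0569), for Tubb5 in the AngII response by sex with limma-voom (-0.0189) and for Tubb4b between the sexes without the KO control females (-0.0823). Without single libraries the AngII change in KO ran from -0.0144 to 0.46 (Tuba1c), -0.23 to 0.43 (Tubb4a), -0.0969 to 0.0165 (Tubb5) and -0.16 to 0.79 (Tubb6); the sex difference from -0.0972 to 0.0687 (Tubb2a) and -0.0740 to 0.0158 (Tubb5); and the AngII response by sex from -0.42 to 0.0316 (Tuba1c) and -0.0306 to 0.13 (Tubb5). The cause was not tested.

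Replicate numbers did not pair the samples: deviations of same-numbered libraries had a median correlation of 0.00 over 84 pairs, 2 of them over 0.1, and 10 of 24 libraries correlated best with their own number. With the replicate block, 821 genes were called between the sexes and 178 between KO and WT, and Tubb4a differed between the sexes by 1.08 log2 (edgeR, adjusted p = 0.00708). Counts at Tubb4a were 9 to 203 per library and at Tubb6 0 to 127, which limits what can be read from single libraries. By Spearman's rho the 5 genes most like Tubb4a ranked 1, 69, 18, 25 and 13 (Efhd2, Sepn1, Adam9, Wasf2 and Mxra7). Fits in 1 sex give no sex comparison, and the fit of only the groups compared was made for the AngII comparisons alone.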
